A study of Mus musculus with 8 samples.

Results

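The regions described here are stretches of chromatin that carried methylated lysine 4 of histone H3 (H3K4me) in every library of embryonic mouse cortex and that lie far from any protein-coding gene. Peaks on chromosomes 1 to 19 were merged within each of the 4 deposited peak lists and the lists were intersected. Intervals of at least 200 bp and under 10000 bp were kept, and a region was called distal if it lay more than 50 kb from every protein-coding gene span of GRCm38. There were 10227 such regions, 18.0% of the 56725 shared regions of these lengths. They sum to 13.5 Mb. The regions were thus chosen by the positions of the called peaks, so their presence in all 4 lists is a description and not a result. Another 292 distal intervals were shorter and 13 were longer than the limits.

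The chromatin came from whole cortex lysates of E15.5 embryos. Control embryos, labelled WT, were Prdm16 flox/flox without a Cre driver. Mutant embryos, labelled cKO, were Emx1Ires-Cre; Prdm16flox/flox. The Emx1 gene drives Cre in dorsal telencephalic progenitors and their progeny, so interneurons and microglia in the lysate come mostly from cells outside the Cre lineage. All groups thus carry floxed Prdm16, which encodes a zinc-finger transcriptional regulator of radial glia, which are the cortical stem cells. There were 2 ChIP libraries per genotype. The labels do not say whether the 2 came from separate embryos or pools, so p-values measure only the spread between these libraries, which may be technical. Inputs were not analysed here, and the peak lists cannot check the deletion itself.

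The antibody is listed as anti-H3K4me with a catalogue number sold for the monomethylated form. Monomethylated H3K4 marks enhancers, the distal elements that loop to promoters and raise transcription in particular cells, and it also flanks active promoters. Enhancers of developmental transcription factors often sit in large stretches of sequence without coding genes, where long non-coding RNA (lncRNA) genes and microRNA (miRNA) genes can also start. A nearest gene is used below as a position only and not as a regulatory target. A whole lysate mixes cell types, so fewer marked cells and less of the mark per cell cannot be told apart.

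The lists held 65740 to 81447 peaks on these chromosomes and covered 113 to 165 Mb, with more of both in the 2 cKO lists than in the 2 WT lists. The read depth behind them is unknown. The tissue label was checked on marker genes, measured as the percent of the gene span and 10 kb on either side under peaks. The median of 12 cortex markers lay between 54.8% and 63.2% in the 4 libraries. That of 13 microglia and blood markers lay between 1.75% and 3.58%, with the globin gene Hbb-bt at 0 in every library. For 14 vessel and meningeal markers it lay between 3.97% and 7.85%, with Col3a1 at 0 in every library.

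Several distal regions lay on promoters of lncRNA genes, and 4 of these are printed because they mark the places the results return to. Each sequence is the RefSeq window (GRCm38.p6) from 250 bases before to 50 after the annotated start, 5′ to 3′ on the gene's strand, with CG dinucleotides in capitals. Mir100hg hosts miRNA genes and carried 19 regions. Lncpint is a p53-responsive lncRNA. Gm31746 starts inside the longest region of all. Gm38512 starts in the gap between Sox2 and Atp11b.
Mir100hg promoter, chr9:41376276-41376575, plus strand: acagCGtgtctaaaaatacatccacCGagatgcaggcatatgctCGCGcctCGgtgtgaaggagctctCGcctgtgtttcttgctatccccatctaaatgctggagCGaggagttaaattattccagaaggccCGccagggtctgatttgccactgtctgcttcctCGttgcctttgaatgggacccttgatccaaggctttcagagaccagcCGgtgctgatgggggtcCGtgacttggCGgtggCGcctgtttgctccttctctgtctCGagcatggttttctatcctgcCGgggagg
Lncpint promoter, chr6:31218425-31218724, minus strand: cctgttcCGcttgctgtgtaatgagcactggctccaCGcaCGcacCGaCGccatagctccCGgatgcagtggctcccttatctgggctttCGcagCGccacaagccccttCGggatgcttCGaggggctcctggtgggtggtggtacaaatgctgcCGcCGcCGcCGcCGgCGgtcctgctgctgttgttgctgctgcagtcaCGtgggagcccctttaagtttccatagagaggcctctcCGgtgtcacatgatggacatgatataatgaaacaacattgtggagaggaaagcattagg
Gm31746 promoter, chr6:51061208-51061507, minus strand: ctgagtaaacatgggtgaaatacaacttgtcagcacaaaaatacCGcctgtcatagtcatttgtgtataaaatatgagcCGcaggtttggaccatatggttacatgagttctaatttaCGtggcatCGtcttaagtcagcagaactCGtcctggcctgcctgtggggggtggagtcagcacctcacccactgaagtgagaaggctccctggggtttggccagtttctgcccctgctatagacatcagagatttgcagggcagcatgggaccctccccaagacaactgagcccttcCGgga
Gm38512 promoter, chr3:35405901-35406200, minus strand: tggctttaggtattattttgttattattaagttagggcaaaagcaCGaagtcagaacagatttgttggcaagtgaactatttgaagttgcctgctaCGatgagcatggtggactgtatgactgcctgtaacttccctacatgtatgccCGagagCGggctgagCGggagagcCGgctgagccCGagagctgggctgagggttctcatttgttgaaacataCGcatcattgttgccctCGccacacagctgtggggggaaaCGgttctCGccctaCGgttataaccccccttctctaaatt

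The regions also lay on or within 1 kb of 23 miRNA genes, of which 19 had mature sequences in the RefSeq table. Mature miRNAs pair with messenger RNAs through their seed, bases 2 to 8, which is in capitals. The 8 shown come from precursors that the paragraphs below describe. The first pair shares 1 seed and comes from 1 region.
mmu-miR-181a-5p, chr1:137966468-137966490, plus strand: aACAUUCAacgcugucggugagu
mmu-miR-181b-5p, chr1:137966650-137966673, plus strand: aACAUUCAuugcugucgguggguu
mmu-miR-129-5p, chr2:94241419-94241439, minus strand: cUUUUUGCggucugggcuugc
mmu-miR-137-3p, chr3:118433901-118433923, plus strand: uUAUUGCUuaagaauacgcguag
mmu-miR-99a-5p, chr16:77598940-77598961, plus strand: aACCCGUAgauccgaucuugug
mmu-let-7c-5p, chr16:77599672-77599693, plus strand: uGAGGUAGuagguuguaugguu
mmu-miR-125b-5p, chr16:77646279-77646300, plus strand: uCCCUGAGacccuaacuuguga
mmu-miR-344-3p, chr7:61877782-61877804, minus strand: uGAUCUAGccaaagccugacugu

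Distal regions thinned out with distance from coding genes, and the steepest part of the decline lay beyond 250 kb. Shared regions numbered 35.5 per Mb within coding gene spans, 22.2 per Mb up to 10 kb away and 18.5 per Mb between 10 and 50 kb, each region placed by its midpoint. In the distal bins the density was 18.2 per Mb at 50 to 100 kb, 16.01 at 100 to 250 kb, 10.8 at 250 to 500 kb and 3.47 beyond 500 kb. The 50 kb limit thus fell on a nearly level stretch of the curve. Each library alone showed the same order of the distal bins. Peaks lay over 4.07% ± 0.665 of sequence at 50 to 100 kb (SD, n = 4 libraries) and 0.710% ± 0.0987 beyond 500 kb. The median distance was 148 kb. Of the regions, 6962 (68.1%) were farther than 100 kb, 702 farther than 500 kb and 100 farther than 1000 kb. Just inside the limit were regions at 50.002 kb from Rxra, 50.002 kb from Zfp423 and 50.005 kb from Prcp. Just outside were regions at 49.965 kb from Atrnl1, 49.947 kb from Hmgb1 and 49.947 kb from Neurl1b.

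**Figure D1:**
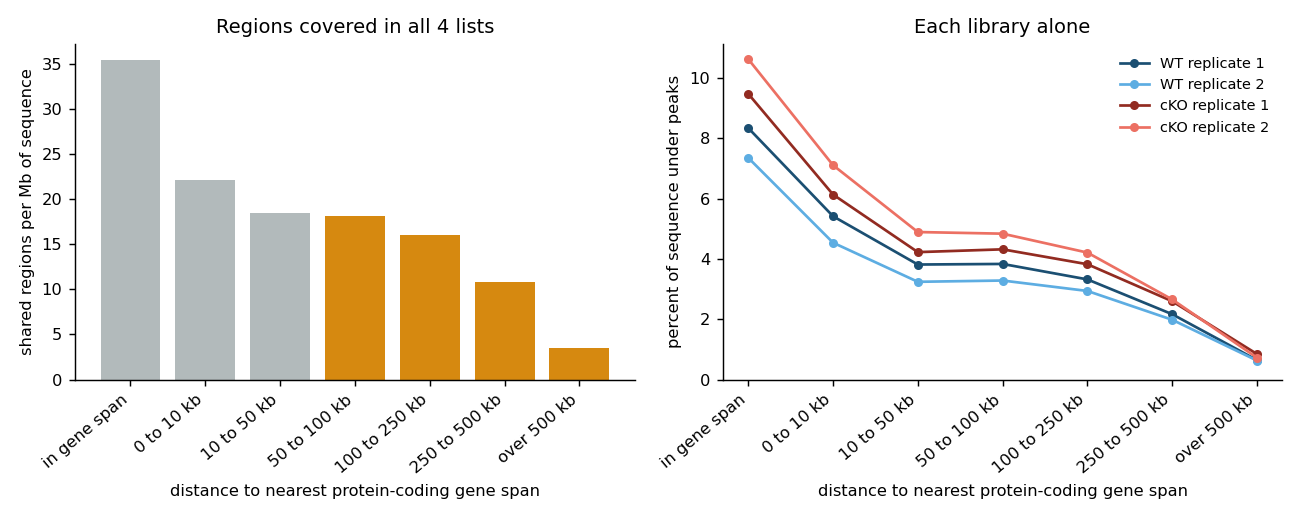
Left, shared regions per Mb of sequence in 7 bins of distance to the nearest protein-coding gene span, with the distal bins in orange. Right, percent of the same sequence under peaks in each of the 4 libraries. Density fell from 18.2 per Mb at 50 to 100 kb to 3.47 per Mb beyond 500 kb, and each library's own coverage had the same order over the distal bins.

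The distal regions were spread unevenly over the gaps between coding genes. Distal sequence came to 839 Mb, 34.9% of the chromosome extents, and lay in 2495 gaps, of which 1467 held a region. The 50 gaps with the most regions held 19.97% of them in 6.53% of the distal sequence. When regions within 50 kb of each other were joined, 3287 groups formed. Of these, 568 groups of 5 or more held 54.3% of the regions, and 1513 regions stood alone. Regions of 1 gap share their surroundings and are not replicates of each other.

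The fullest gap was Mn1-Cryba4 on chromosome 5, between a transcriptional coregulator gene and a lens crystallin gene. It held 70 regions that covered 25.8% of its distal sequence, a density of 101.5 per Mb against 12.2 per Mb over all distal sequence. All 70 fell in 1 group at chr5:111516961-112167251. Bcl11a-Fancl followed with 68 regions, Rps24-Zmiz1 with 65, Slc4a3-Epha4 with 64 and Auts2-Castor2 with 63. Bcl11a is a zinc-finger factor of cortical projection neurons, and Zmiz1 is a PIAS-like transcriptional coregulator. The other large groups lay in Rps24-Zmiz1 (56 regions over 674 kb), Prok2-Rybp (48 over 394 kb), Matn1-Ptpru (47 over 670 kb), Prl5a1-Sox4 (46 over 486 kb), Rasgef1b-Vamp9 (46 over 543 kb), Sdk2-Rpl38 (40 over 480 kb) and Rragc-Pou3f1 (39 over 606 kb).

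Long gaps could hold few regions. The longest gap, Pcdh20-Pcdh9 on chromosome 14 with 4442 kb of distal sequence, held 2 regions. Cntnap5b-Cdh20 (4178 kb) and Dsel-Cntnap5a (3720 kb), both on chromosome 1, held none. Celf4-Pik3c3 on chromosome 18, of nearly the same length, held 38. Of 489 gaps with at least 500 kb of distal sequence, 95 had under 1 region per Mb and 33 had over 40, around a median of 5.60. Cntnap5a and Cntnap5b, at the edges of the empty gaps, encode contactin-associated adhesion proteins of neurons.

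Every region was assigned to its nearest coding gene. Of 4083 coding genes that were nearest to some distal sequence, 2117 were nearest to at least 1 region, and 320 genes accounted for at least 50% of all regions. Zfp608, a zinc-finger gene on chromosome 18, had the most, with 58 regions between 57.9 and 691 kb away. Then came Adgrl2, a latrophilin adhesion receptor, with 44 and Slc4a3, an anion exchanger, with 41. Sox2, which maintains neural stem cells, had 38. Sox4 had 37 and Sox11 had 34, and both encode SOXC factors of newborn neurons. Id4, an inhibitor of bHLH factors in progenitors, had 37, as had Tle3, a Groucho corepressor, Cryba4 and Castor2, a gene of the mTORC1 pathway. Bcl11a had 36 and Zmiz1 had 35.

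These 12 genes differed in how their regions were laid out. The 37 regions beside Sox4 were long, with a median of 2432 bp, and summed to 103 kb, whereas the 38 beside Sox2 had a median of 855 bp and summed to 53.9 kb. Regions beside Slc4a3, Cryba4, Castor2 and Zmiz1 lay on 1 side only, which was the only side with distal sequence nearest to these genes. Those of Zfp608, Tle3, Sox2 and Sox11 lay on both sides. Bcl11a regions reached 1096 kb from the gene.

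**Figure D2:**
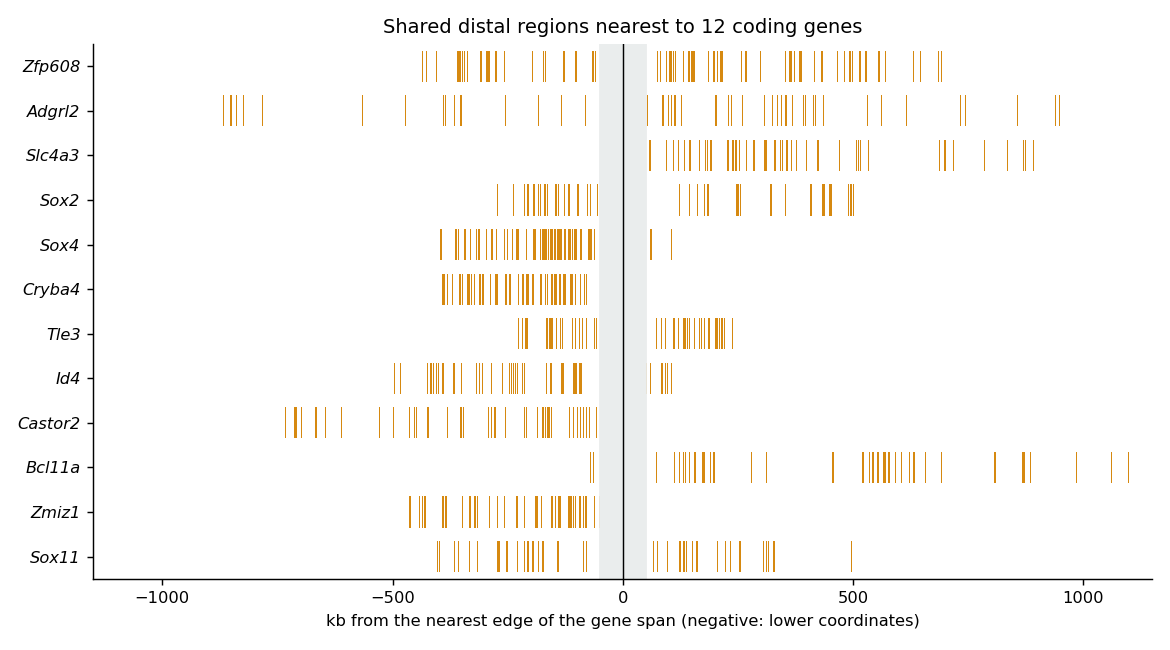
Shared distal regions nearest to each of 12 coding genes, drawn by distance in kb from the nearer edge of the gene span, with lower coordinates to the left. Grey marks the 50 kb on either side that the rule leaves out. Regions of Slc4a3, Cryba4, Castor2 and Zmiz1 lie on 1 side, the only side with distal sequence nearest to these genes. Those of Bcl11a reach 1096 kb.

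Transcription factor genes of the cortex had more distal regions beside them than their share of distal sequence, and adhesion and synaptic genes had fewer per Mb. The ventral telencephalon and hem lists below were similarly dense or denser, so the excess was not particular to cortical factors. Nor was it particular to neural lists. Microglia and blood markers stood at 22.4 per Mb, though only 2 of them had distal sequence, 0.669 Mb in all. Vessel and meningeal markers stood at 13.7 per Mb in 1.46 Mb. Of 20 cortical progenitor factors with distal sequence nearest to them, 20 had a region, for 234 in all and 24.8 per Mb. That is 2.04 times the density over all distal sequence, and the ratio was 1.80 ± 0.124 when computed from each library's own distal peaks (SD, n = 4 libraries). Sox2, Id4 and Sox9, a factor of neural stem cells and glia, led with 38, 37 and 25. Nfib, a nuclear factor I gene, had 21. Hes1, the Notch-responsive repressor of neurogenesis, had 13 in 0.195 Mb. The lowest densities were 2.03 per Mb at Zic1 and 2.81 at Meis2, each with 1 region. Lhx2 and Eomes also had 1, but in 0.00706 and 0.0893 Mb of distal sequence.

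Of 37 cortical projection neuron factors, 31 had a region, at 20.3 per Mb. Sox4, Bcl11a and Sox11 led. Pou3f3, a POU factor of upper layer neurons, had 27, Tle4, a corepressor of corticothalamic neurons, 22, and Bcl11b, which specifies subcerebral neurons, 14. Neurod6, a bHLH factor of projection neurons, had 1. Per library, the density ratio to all distal sequence was 1.62 ± 0.0358 (SD, n = 4 libraries).

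Ventral telencephalon and interneuron factors, which mark cells born outside the cortex, stood at 25.04 per Mb. Sox6 had 12, Maf 10 and Dlx2 8. Genes of the cortical hem, Cajal-Retzius cells and choroid plexus stood at 29.5 per Mb, and Barhl2 had 10 of their 41 regions. These 2 lists rest on 2.80 and 1.39 Mb of distal sequence. In the same order, their density ratios per library were 1.92 ± 0.0800 and 2.39 ± 0.0930 (SD, n = 4 libraries). Factors of non-neural organs, such as Irx5 with 16, Runx1 with 15 and Tbx3 with 13, stood at 13.9 per Mb. Their density ratio per library was 1.23 ± 0.0990 (SD, n = 4 libraries), smaller than those of the progenitor, projection neuron, ventral and hem lists.

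Signalling genes stood at 9.86 per Mb. The ephrin receptor gene Epha4 had 29, Fzd8, a Wnt receptor gene, 12 and Fgfr2 11. Adhesion and axon guidance genes had 71.3 Mb of distal sequence, the most of these lists, but 3.40 regions per Mb, a density ratio of 0.325 ± 0.0214 (SD, n = 4 libraries). Plxna2 (22 regions), Kirrel3 (19) and Tenm2 (15) had the most of them. By count, 43 of 61 (70.5%) had a region, against 51.8% of all coding genes with distal sequence. The lower value was thus in regions per Mb and not in the share of genes with a region. Synaptic and ion channel genes stood at 3.55 per Mb, and 24 of 44 (54.5%) had a region, against the same 51.8%. Gria1, an AMPA receptor subunit, had 9. Every list described above, signalling genes and non-neural factors included, had its density ratio on the same side of 1 in every library alone. The lists were chosen with earlier results of these data known, and these counts carry no test. They also differed in distal sequence, with 9.43 Mb for 20 progenitor factors and 71.3 Mb for 61 adhesion genes. Shared regions thinned out with distance, to 3.47 per Mb beyond 500 kb over all genes, and the lists were not matched for distance. The part of distance in these ratios was not tested.

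**Figure D3:**
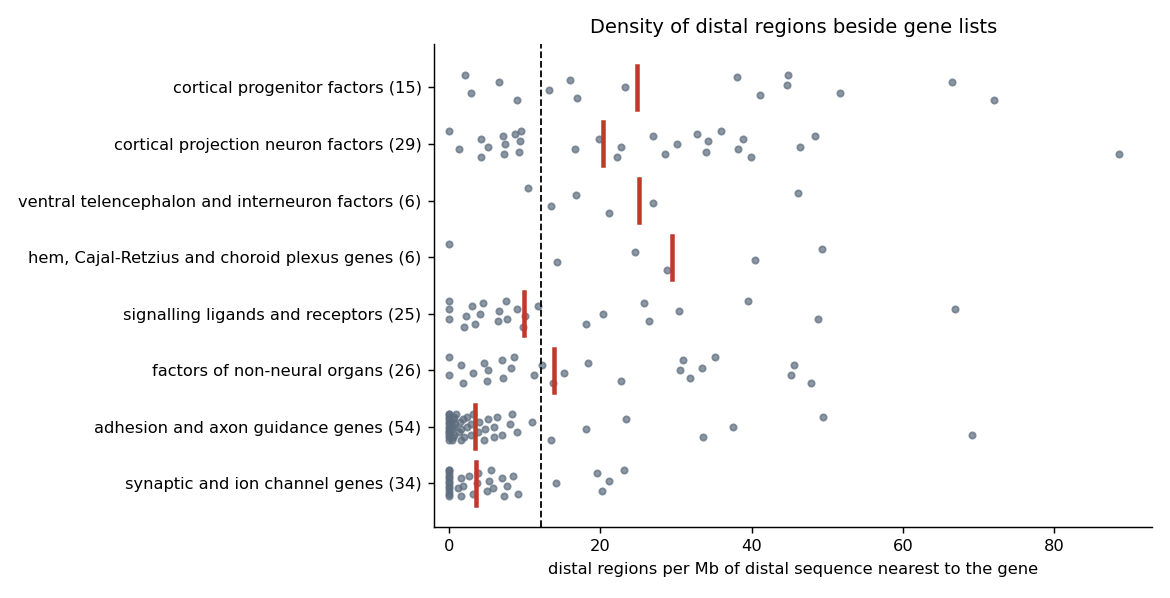
Distal regions per Mb of distal sequence nearest to a gene, by gene list. Each point is a gene with at least 100 kb of such sequence (their number is in brackets), the red bar is the whole list and the dashed line is all distal sequence, at 12.2 per Mb. The progenitor list stands at 24.8 and the adhesion list at 3.40, with genes of each list on both sides of the line.

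The regions ranged widely in length within the limits of the rule. The shared length had a median of 948 bp, with the middle of the distribution between 547 and 1628 bp, and 195 regions were 5000 bp or longer. Regions overlapping coding spans had a median of 1107 bp, and those outside spans but within 50 kb had 906 bp. The authors' fold enrichment over background, ranked within each list, rose with length. The median fold percentile was 38.6 ± 4.47 for distal regions under 500 bp and 87.8 ± 1.98 for those of 5000 bp or longer (SD, n = 4 libraries). The other shared regions of the same lengths had 40.6 ± 5.57 and 87.7 ± 1.77.

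Regions farthest from genes were shorter and ranked lower. Beyond 500 kb the median length was 734 bp and the median fold percentile 55.9 ± 3.37, against 981 bp and 61.1 ± 4.28 at 50 to 100 kb (SD, n = 4 libraries). The percentile was lower beyond 500 kb in all 4 libraries, but by unequal amounts. It went from 59.8 to 51.6 in WT replicate 1 and only from 55.8 to 54.9 in WT replicate 2. The part of the shorter length in the lower rank was not tested. The farthest region lay 2237 kb from Pik3c3 in the Celf4-Pik3c3 gap. Of the 10 farthest, 7 were in that gap, and the others were nearest to Lrrc4c, Ctnna2 and Tenm2, genes of synaptic adhesion and cell junctions, at 1839, 1628 and 1625 kb.

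The longest region was 9924 bp at chr6:51051746-51061669, between Npvf and Gm38821. Its peaks were 10486 and 10469 bp wide in the WT libraries and 10106 and 9924 bp in the cKO libraries, so the WT peaks were the wider by a small margin. It holds the Gm31746 promoter printed above. The other 9 of the 10 longest were between 8437 and 9366 bp. They were nearest to Csnk1g3, Zfp703, Tcf4, Rgma, Rybp, Ppp2r3a, Gm46320, Klf7 and Dok5. Tcf4 is a bHLH partner of proneural factors, and Rgma is a neurite guidance molecule.

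The most enriched region, by its lowest fold percentile in the 4 lists, was a 2018 bp region 52.7 kb from Sik1, a salt-inducible kinase gene, at chr17:31789499-31791516. It ranked at percentile 99.8 or higher in each list. The Mn1-Cryba4 gap held the next, a 7853 bp region 218 kb from Mn1, and also the third, of 3687 bp. The last 2 of the top 5 were nearest to Nphp4 and Septin9. In all, 326 distal regions (3.19%) were in the top 10% by fold in all 4 lists, against 4.17% of the other shared regions.

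Peaks at distal regions were narrower than those at the other shared regions in every library. The median width of the peak holding a distal region was 1373 and 1261 bp in the WT libraries and 1545 and 1649 bp in the cKO libraries. At the other regions it was 1591, 1400, 1846 and 2148.5 bp in the same order. The difference was −289 bp ± 155 (SD, n = 4 libraries, two-sided exact sign-flip permutation p = 0.125, the smallest that 4 libraries allow). Against only those other regions that lie outside coding spans, the difference was −12.8 bp, so it lay almost wholly against regions in gene spans. The median fold percentile was lower by 1.99 points ± 1.33 at distal regions, with the same sign in all 4 libraries (exact permutation p = 0.125). The share of each peak that all lists had in common was 75.7% ± 8.68 at distal and 73.9% ± 12.3 at other regions, a difference smaller than its spread (exact permutation p = 0.5).

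Many distal regions lay in lncRNA genes. Of the 10227, 2550 (24.9%) overlapped an lncRNA gene, and 26.1% of their bases were in lncRNA spans, which take up 11.7% of distal sequence. The gene with the most bases in regions was 2610307P16Rik, which extends 425 kb through the Prl5a1-Sox4 gap and had 40 regions over 104 kb. A930011G23Rik, in Rasgef1b-Vamp9, had 38. Mir100hg, the host of a miR-100, let-7 and miR-125 cluster, had 19 over 49.2 kb, 20.6% of its span. Next by bases came 2610035D17Rik, beyond Sox9, with 18 regions, 5730522E02Rik in Bcl11a-Fancl with 27, Zmiz1os1 beside Zmiz1, LOC115487747 inside the span of 2610035D17Rik, A330033J07Rik beside Id4, Gm29260 in Tmem182-Pou3f3 and Lncpint. Of these 10, LOC115487747 had the largest covered share, 43.6% of its 54.4 kb. Rmst, an lncRNA that works with Sox2 in neurogenesis, had 3 regions and Sox2ot had 3.

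Starts of distal lncRNA genes were more often under a peak than distal sequence at large. Of 2687 lncRNA genes that start in distal sequence, 17.3% and 15.97% had the start under a peak in the WT libraries and 18.8% and 19.8% in the cKO libraries. The mean was 17.9% ± 1.68 against 2.71% ± 0.409 of distal sequence (SD, n = 4 libraries, two-sided exact sign-flip permutation p = 0.125, the smallest possible). The difference of 15.2 points was far larger than its spread between libraries, 1.27 points. In 351 genes (13.1%) the start was inside a shared distal region, and in 2075 it was under no peak in any list. At 10 kb before the start, 6.58% ± 1.09 of positions were under a peak, so the surroundings of these genes were also above distal sequence at large.

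The profile around starts had a different shape from that of coding genes. Coverage of distal lncRNA starts was highest 250 bp into the gene, at 18.1% ± 1.64. Coverage of coding starts was highest 1000 bp into the gene, at 39.4% ± 4.49, with 35.2% ± 6.67 at the start itself (SD, n = 4 libraries). The coding profile thus had a shoulder at the start and a summit beyond it in each library, and the lncRNA profile a single narrow summit. The difference in position was not tested.

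**Figure D4:**
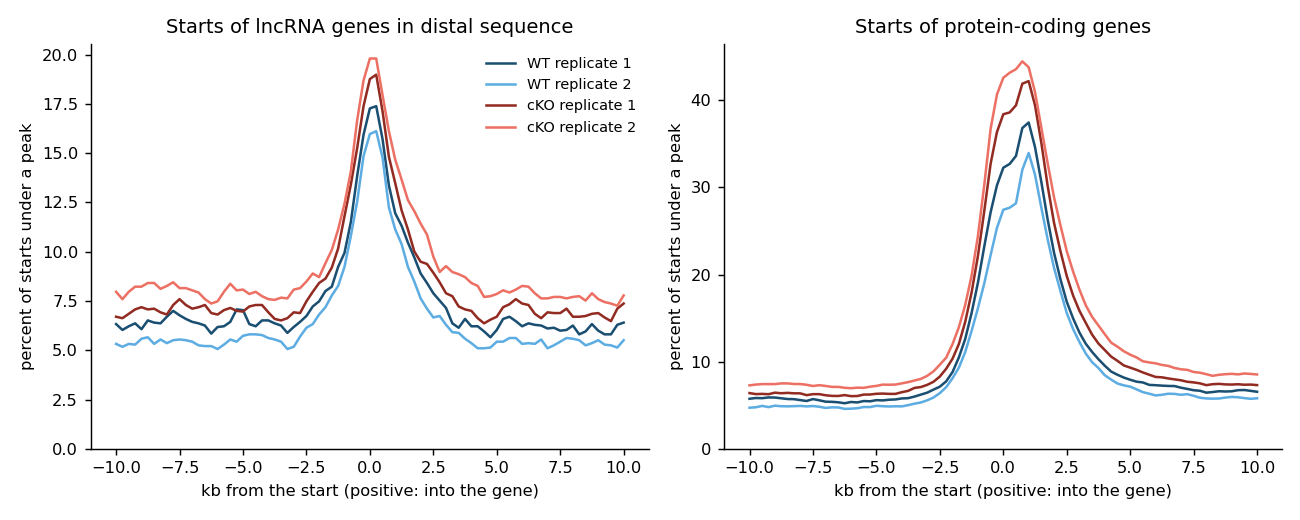
Percent of gene starts with a peak at each offset, in kb from the start with positive values into the gene, for lncRNA genes that start in distal sequence (left) and protein-coding genes (right), 1 line per library. The vertical axes differ. The lncRNA lines are highest near 250 bp and the coding lines near 1000 bp.

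In CG count and GC content, these promoters lay between lncRNA starts under no peak and coding starts. Windows of 300 bases around the 351 starts inside a region had a median of 5 CG dinucleotides and 49% GC. The 2075 starts under no peak had 2 and 45%, and 16456 coding starts had 14 and 56.7%. The Lncpint window printed above has 18 CG dinucleotides, Mir100hg 15, Gm38512 12 and Gm31746 6. Of motifs searched on both strands, CAGCTG, an E-box read by NEUROD-type factors, was in 25.6% of the windows inside a region, 15.4% of those under no peak and 15.2% of coding windows. TTGGCA, part of the nuclear factor I site, was in 23.4%, 16.7% and 13.4% in the same order. TAATTA, a homeobox core, was in 10.8%, 8.63% and 4.61%. For TGANTCA, the AP-1 site, the shares were 7.69%, 11.4% and 7.12%. Motifs of neural factors did not all go the same way. AGGTGTG, a TBR core, was in 2.85%, 6.84% and 5.39%, and ATGCAAA, a POU octamer, in 5.70%, 7.13% and 4.23%. ACAAAG, a SOX core, was in 26.5%, 25.7% and 16.5%, and CAGATG, a proneural E-box, in 27.4%, 22.8% and 14.9%. These are matches of letters and not measured binding sites, and base composition differs between the 3 sets.

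Several miRNA genes of the nervous system were in these regions. Mir129-2 and Mir129b, which lie on opposite strands of the same bases, sat in a 7410 bp region at chr2:94240266-94247675 with peaks of 7741 to 8505 bp in the 4 libraries. Mir124a-2, 1 of the genes for a neuron-enriched miRNA, was in a 3531 bp region 151 kb from Cypt12. Mir137, a regulator of neuronal maturation, was in an 1834 bp region 127 kb from Dpyd. Mir99a was inside a 695 bp region, Mirlet7c-1 39 bp beyond its edge, and Mir125b-2 at the end of a 4116 bp region, all in the Usp25-Cxadr gap. In that gap Mir99ahg, a host gene by name, had 9 regions. Its annotated span here, chr16:77329328-77558428, ends before these miRNA genes. Mir344 and Mir344-2, which give the same mature miR-344, each lay within 200 bp of a short region in the Gm51483-Ndn gap.

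Mir181a-1 and Mir181b-1 shared a region of 867 bp at chr1:137966230-137967096, 95.8 kb from Ptprc. In the region and 2 kb on either side, peaks covered 1109 and 876 bp in the WT libraries and 3131 and 2940 bp in the cKO libraries. The cKO libraries were both above the WT libraries. The centred log2 difference, cKO minus WT, was 0.96 ± 0.20 (SE), with a limma adjusted p of 0.521. Over the other miRNA regions the log2 difference ran from −0.49 at Mir378d to 0.76 at Mir344-2, and none passed either.

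No distal region differed between genotypes past the threshold. The value tested was the bases under peaks in each region and 2 kb on either side, as log2(bases + 500), which understates changes in thinly covered windows. Libraries were centred on their medians over all 56725 shared regions. In limma with Benjamini-Hochberg adjustment, 0 of 10227 distal regions were higher and 0 lower in cKO at 0.05, against 0.0% in each direction over all shared regions, and the smallest adjusted p was 0.521. At an unadjusted p under 0.05, 315 distal regions (3.08%) were higher in cKO, against 4.02% of all shared regions. There were 485 lower (4.74%), against 3.79%. The design had little power. On simulated data over 56725 regions it found 0 of 50 regions given a log2 change of 1. It found 3 of 50 given 2 and 21 of 50 given 4. In the libraries the value is bounded: each region has at least 200 bp under peaks in every list, and a window can at most be full. A log2 change of 4 is beyond that bound. The largest differences named below were 1.65 near Arap3 and −1.78 near Celf2. Changes of the size that the windows allow were thus mostly out of the design's reach.

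Direction depended on centring, and peaks covered more of most windows in cKO. Without centring, bases did not overlap between genotypes in 37.3% of distal regions with cKO higher and 6.68% with cKO lower, against 41.4% and 4.97% of all shared regions. With centring, 9.98% were higher and 36.6% lower, against 11.8% and 32.0%. The median centred log2 difference was −0.14 at distal and −0.08 at other regions, and without centring 0.15 and 0.20. Within the distal set the centred median went from −0.13 at 50 to 100 kb to −0.20 beyond 500 kb.

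Summed over all distal windows, peaks covered 18.5 and 17.2 Mb in the WT libraries and 20.3 and 21.5 Mb in the cKO libraries, where bases in overlapping windows count more than once. The ratio of cKO to WT was 1.17 (two-sided exact permutation p = 0.333, the smallest that 2 against 2 allow), and at the other shared regions it was 1.22. Distal bases per 100 bases at other regions were 18.7 and 19.1 in WT and 18.6 and 17.8 in cKO, groups that did not overlap. The means were 18.9 ± 0.310 and 18.2 ± 0.522 (SD, n = 2 libraries each, exact permutation p = 0.333). The gain in covered bases over WT was therefore slightly smaller at distal regions in these libraries, with no test that could pass the threshold. With lists cut to an equal covered length, the log2 ratio of summed distal bases was −0.02 in place of 0.23. The part of overall peak width in these differences was not tested.

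**Figure D5:**
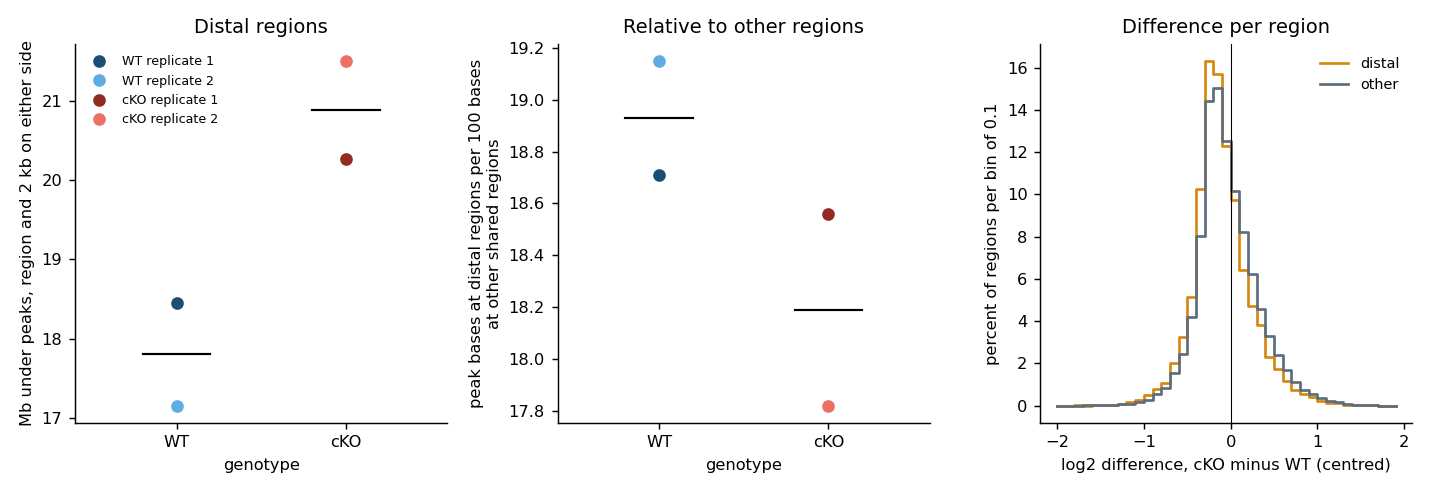
Left, Mb under peaks in distal regions and 2 kb on either side, 1 point per library with the genotype mean as a line (the axis does not start at 0). Middle, those bases per 100 bases at the other shared regions. Right, distribution of centred log2 differences, cKO minus WT, for distal and other shared regions in bins of 0.1. The means were 17.8 and 20.9 Mb on the left and 18.9 and 18.2 in the middle, and the distal distribution lies slightly to the left of the other.

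The regions with the largest differences among those at an unadjusted p under 0.05 without overlap were picked for their values, so these are descriptions. The limma adjusted p was 0.521 for each. Near Arap3 on chromosome 18, 89.4 kb away, the WT libraries had 0.971 and 0.737 kb under peaks and the cKO libraries 4.62 and 4.67 kb. That is a log2 difference of 1.65 ± 0.19 (SE), and the cKO windows were almost full. Regions nearest to Khdrbs2, Klf4, Ppp4r2 and Sox2 had log2 differences of 1.59, 1.58, 1.55 and 1.502. These values moved with the settings. The Khdrbs2 region had 0.03 with equal numbers of peaks, and with lists cut to an equal covered length the Klf4 region had −0.67 and the Ppp4r2 region 0.10. The Sox2 region had 0.40 with 5 kb on either side. The Sox2 region, 499.75 kb from the gene, was covered over 0.493 and 0.43 kb in the WT libraries and over 2.88 and 2.75 kb in the cKO libraries.

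Lower in cKO were regions nearest to Celf2, 4933402D24Rik, Pou3f3, Rapgef5 and Mn1, with log2 differences of −1.78, −1.60, −1.54, −1.54 and −1.45. With stricter peaks the Celf2 and Rapgef5 regions had −0.75 and −0.56. The region 1072 kb from Celf2, an RNA-binding protein gene, was covered over 2.52 and 2.54 kb in the WT libraries and over 0.587 and 0.566 kb in the cKO libraries. The region 352 kb from Mn1, in the fullest gap, went from 3.47 and 2.93 kb in the WT libraries to 1.203 and 1.09 kb in the cKO libraries. Over all distal regions, 32.1% had a centred difference above 0, and over all shared regions 38.4%. Beside the 12 genes with the most regions this share ran from 18.9% at Tle3 (7 of 37) and 20.6% at Sox11 (7 of 34) to 44.7% at Sox2 (17 of 38) and 45.7% at Zmiz1 (16 of 35). At Zfp608 it was 34.5% (20 of 58). No test was made of these shares. Beside the progenitor factors, 6 of 234 regions had an unadjusted p under 0.05 with cKO higher and 7 with cKO lower. Beside the projection neuron factors, there were 8 and 19 of 346 (background over all shared regions 4.02% and 3.79%).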

How the data were processed

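H3K4me ChIP-seq of native, micrococcal nuclease-digested chromatin was deposited as 1 list of broad peaks per ChIP library, per the labels' protocols and the files. The submitters' processing notes name mm10 and, as tools, MACS2 2.1.1, Bowtie2 2.2.8, cutadapt and FastQC; calling options were not given in the sources used here. A deposited line holds coordinates, a score, the authors' fold enrichment (a ratio), and −log10 p- and q-values from the authors' caller, which serve here only to rank or filter peaks within 1 list. Depth is unknown, and deeper or better enriched libraries give more and wider peaks.

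Interval code in Python 3.11.15 (pandas 2.3.3, numpy 2.4.6) was tested on simulated data. Gene spans, starts and sequences came from RefSeq tables on GRCm38.p6; table entries starting before 3 Mb, which carry scaffold coordinates, were left out. The genotype test per region used limma 3.58.1 under R 4.3.3, with a trended eBayes fit of 2 libraries against 2, a pseudocount of 500 bases and no block. Libraries were compared with exact permutation tests.

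The regions, gene lists and tests were chosen with earlier results of these data known. Named were, by rule, the 10 longest and 10 farthest regions, the 12 coding genes nearest to most, the 8 largest groups, 5 regions per direction with the largest genotype difference, 3 genes per list, the 10 non-coding genes with most bases, miRNA genes within 1 kb and the 5 regions of highest fold rank; further list members, gaps and motifs were named after their values were seen.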

Additional observations from a re-analysis of the deposited data

Results flagged for a closer look

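The rule for these regions keeps to chromosomes 1 to 19. The same steps on chromosome X, which none of the comparisons use, found 135 shared distal regions among 529 shared regions. That is 1.79 per Mb of distal sequence between the outermost coding genes of the chromosome, against 12.2 per Mb on chromosomes 1 to 19. The lists hold no control samples for this count, and its cause was not tested.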

How the results depend on the processing

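The number of distal regions was 4964 with stricter peaks (−log10 q of at least 3) and 5852 with lists cut to an equal covered length, against 10227. Leaving out each list in turn gave 10523 to 11817, the most without WT replicate 2. The genotype test called 0 distal regions in either direction under every alternative run; with stricter peaks 2 of the other shared regions were called higher. With an equal covered length the log2 difference of summed distal bases was −0.0162 (0.23 as reported, 0.18 to 0.28 leaving out 1 library), and the region near Klf4 had −0.67. The distal sum relative to other shared regions stayed below 0 in all alternatives run, from −0.09 to −0.03 leaving out 1 library. With the replicate number as a block, the fit also called 0, and the log2 difference of summed distal bases was 0.23. Deviations of same-numbered libraries had a correlation of −0.09 over distal regions, and 2 pairs do not establish a pairing. The width difference ran from −339.5 to −219 bp, the fold percentile difference from −2.55 to −1.63 and the shared percent from 0.00352 to 3.10 leaving out 1 library. Relative to all distal sequence, log2 density beside progenitor factors was 1.03 as reported, 1.198 with stricter peaks, 1.15 with equal length and 0.95 to 1.04 leaving out 1 library. Beside adhesion genes it was −1.84, −2.13, −2.16 and −1.88 to −1.75; these density alternatives were chosen after seeing the data. The motif search over region sequences, also with a narrower window, was not run, since it needs a genome. Peak lists without reads limit every value to called width: 2 libraries a genotype cannot show small changes, and regions lost below the caller's threshold are not counted.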
